A study of Mus musculus with 14 samples.

Results

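The comparison described here set 3 bone marrow libraries from mice given non-targeted IgG radioimmunotherapy (IgG RIT) against 4 libraries from untreated mice, across all genes. These are 7 of the 14 RNA sequencing libraries of the series, taken by the treatment in their titles. All 14 came from mice that carried Cdh5 CRE and Rosa26 TdTomato, and from cells sorted as Lineage-, CD45- and TdTomato+ that the labels call bone marrow endothelium. The IgG RIT mice received 20 µCi of a non-targeted antibody, and treated mice were harvested 8 days later. The series also holds 5 libraries from mice given 500 cGy of cesium total body irradiation (TBI), numbered 1, 3, 4, 5 and 6, and 2 libraries from mice given 20 µCi of CD45-targeted radioimmunotherapy (CD45 RIT). The TBI libraries serve below as another reference, and both groups helped to estimate the spread between replicates. RNA was taken up with a Qiagen micro kit, amplified with SMART-Seq v4 and made into Nextera XT libraries. The series title names astatine-211. The labels give no age, sex or strain beyond the genotype, do not say whether a library pools animals, and do not say which radionuclide the IgG carried. They also do not list the antibodies of the lineage panel or say whether the Cre can be switched on by a drug. Nothing states that each library is a separate animal, so the p-values measure the spread between these libraries, which may be technical in part.

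Radioimmunotherapy couples a radionuclide to an antibody so that the dose follows the antibody. A non-targeted immunoglobulin G has no antigen in the marrow and delivers its dose while it circulates and is cleared, which makes it the usual control for an antibody aimed at blood cells. Cdh5 encodes VE-cadherin, the adhesion protein of endothelial junctions. Its promoter is active in endothelium and, during development, in the haemogenic endothelium that gives rise to blood cells, so that a reporter switched on there can also be inherited by blood cells. Marrow endothelium lines the sinusoids and arterioles through which new blood cells leave the marrow and supplies signals to stem cells. Red cell precursors, the erythroblasts, grow on islands in the same marrow, divide several times, fill with haemoglobin and lose most of the surface proteins of other blood cells.

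The untreated libraries held 24787510 to 31077588 counts and the IgG RIT libraries 21657745 to 22924390. Genes with at least 1 count numbered 23409 to 25399 in untreated and 21660 to 22222 in IgG RIT libraries. The 10 most abundant genes took 3.79% to 4.47% of counts in untreated libraries and 16.3% to 17.3% after IgG RIT. No pair of libraries agreed within counting noise. Correlations of log2 CPM, the counts per 1000000 counts of a library, ran from 0.9061 to 0.9445 among untreated libraries, from 0.9173 to 0.9221 among IgG RIT libraries and from 0.8172 to 0.8705 between the groups. TBI replicate 6 correlated at 0.9287 to 0.9324 with the IgG RIT libraries, which is above every correlation among those libraries themselves. It is library 10 of the series, next to the IgG RIT libraries, which are numbers 11 to 13. The untreated libraries are numbers 2, 3, 6 and 7, the other TBI libraries numbers 1, 5, 8 and 9, and the CD45 RIT libraries numbers 15 and 16. TBI is thus the one group with libraries numbered under 10 and also 10 or more, the latter being replicate 6 alone, so the values of that library stand beside the results they touch.

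Several defining endothelial markers had few or no counts in both groups. Cdh5 itself, whose promoter drives the Cre, gave 4, 0, 2 and 6 counts in the 4 untreated libraries and 0 in each IgG RIT library, and was too low to be tested. Kdr, the main VEGF receptor of endothelium, gave at most 70 counts in an untreated and 15 in an IgG RIT library. Tek, the angiopoietin receptor, and Stab2, a scavenger receptor of sinusoids, gave up to 155 and 70 counts in untreated libraries and 0 in all 3 IgG RIT libraries. Per kilobase of transcript, Pecam1 (CD31) averaged 7.12 CPM in untreated libraries, which is rank 5834 of 17083 genes, while the myeloid enzyme gene Mpo averaged 2196 CPM per kilobase, which is rank 6. Flt1, Cldn5, Sox17 and Sox7 had at most 4 counts in any of the 7 libraries. The 25 genes of the endothelial identity list summed to 608.9 to 692.8 CPM in untreated and 222 to 294 CPM in IgG RIT libraries, with Cd34, which blood progenitors share, as a large part of the untreated sums. Ptprc, which encodes the CD45 protein the sort selected against, still gave 1578 to 3273 counts in untreated and 78 to 286 in IgG RIT libraries.

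Of 21509 genes tested with edgeR's quasi-likelihood test, 3536 (16.4%) passed an adjusted p of 0.05 between IgG RIT and untreated libraries. They divided into 1236 higher (5.75%) and 2300 lower (10.7%) after IgG RIT, and of these 495 were at least 4-fold higher and 1428 at least 4-fold lower. The median log2 fold change over all genes tested was -0.42. Values of the 3 IgG RIT and 4 untreated libraries did not overlap for 9265 genes (43.1%). Without the 2 CD45 RIT libraries, which share the estimate of the spread, 7340 genes were called (16.8% of those tested higher and 20.3% lower), 3469 of the 3536 among them. The share of called genes that were higher was 35% with TMM scaling, 46.7% with DESeq2's size factors (1549 higher and 1766 lower) and 14.5% with no scaling (735 higher and 4326 lower). Leaving out IgG RIT replicate 1, IgG RIT replicate 2 or untreated replicate 4 cut the count to 1775, 1903 and 2310. With a library number of 10 or more as a covariate, the count fell to 19 genes, all lower, with 1263 at an unadjusted p under 0.05. That fit rests on TBI replicate 6 alone, and nearly every call named below was lost in it. Of 129 named genes that were called, 43 lost the call when at least 1 of the 7 libraries was left out, and 10 whichever of the 7 it was: Abcb10, Birc5, C1qa, Cytl1, Gclm, Gpx1, Parp1, Prdx6, Trp53 and Xpc. The sign of Bnip3l, Flt3, Irf8, Icam2, Ptprc, Parp1, Xpc, Trp53, Psmb9, Ccng1, Cdkn1a, Cd79a and Cd79b turned in that fit.

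**Figure D1:**
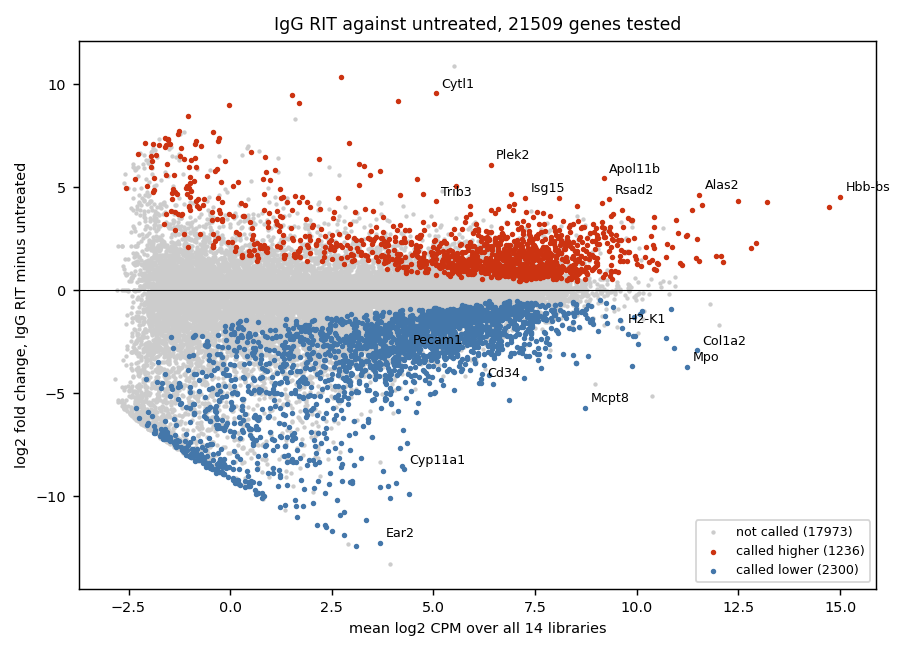
Log2 fold change between IgG RIT and untreated libraries (vertical axis) against the mean log2 CPM over all 14 libraries (horizontal axis), 1 point for each of 21509 genes. Red points are the 1236 genes called higher, blue points the 2300 called lower. The globin gene Hbb-bs lies at the far right, and the line of blue points at the lower left edge is made of genes with few or no counts after IgG RIT.

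Genes of red cell production rose, and globins were the most abundant genes after IgG RIT. All 4 adult globin genes rose, and with them the enzymes of haem synthesis, the proteins of the red cell membrane and the genes of late erythroid maturation. Over the 6 erythroid lists, members called higher numbered 5 of 7 globins, 9 of 14 haem synthesis genes, 6 of 15 iron genes, 11 of 19 membrane genes, 3 of 18 transcription factors and receptor genes and 15 of 20 maturation genes, against 5.75% of all genes. Their median log2 fold changes were 4.29, 2.53, 1.00, 2.99, 1.36 and 2.77, against -0.42 over all genes tested. In bulk RNA, more cells of a type and more RNA per cell cannot be told apart, and the same holds for every fall below. Summed over the globin list, the untreated libraries held 6453 to 12360 CPM of total counts and the IgG RIT libraries 116700 to 121800. TBI replicate 6 held 156600 and the other TBI libraries 20460 to 36610.

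Hbb-bs (chr7:103826534-103828096), an adult beta globin gene, stood at 2773, 2026, 3784 and 2242 CPM in the untreated libraries and at 66280, 61840 and 61160 CPM after IgG RIT (log2 fold change 4.54 ± 0.88 SE, adjusted p = 0.00636). All 3 IgG RIT libraries lay above every untreated library, and TBI replicate 6, at 78720 CPM, lay above them in turn. Hba-a1, an alpha globin gene, went from 2929, 2252, 4766 and 3264 CPM to 52430, 48070 and 61760 CPM (4.03 ± 0.75 SE, adjusted p = 0.00551). Hba-a1 and Hba-a2, and Hbb-bs and Hbb-bt, are near-identical copies whose reads the counting could have split either way, so each pair is better read as a sum. Per kilobase, Hba-a1 was the most abundant gene of untreated libraries (4068 CPM per kilobase) and Hbb-bs the third (3524). After IgG RIT the order was Hbb-bs (82150), Hba-a1 (66610), Hbb-bt (23010) and Hba-a2 (14880), so globin genes took the first 4 ranks.

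Haem is built from glycine and succinyl-CoA by a chain of enzymes that begins with 5-aminolevulinate synthase. Alas2 (chrX:150547375-150570638), the erythroid form of that enzyme, stood at 233, 124, 311 and 226 CPM in untreated libraries and at 6720, 4956 and 4994 CPM after IgG RIT. The groups were far apart (log2 fold change 4.64 ± 0.86 SE, adjusted p = 0.00537). TBI replicate 6 was at 6880 CPM and the other TBI libraries at 677 to 1214 CPM. Alas1, the form used by other tissues, did the reverse, from 224, 154, 231 and 176 CPM to 24.9, 22.8 and 26.2 CPM (-3.00 ± 0.49 SE, adjusted p = 0.00337). Slc25a37, the mitochondrial iron importer mitoferrin, rose by 3.69 ± 0.64 SE on the log2 scale (adjusted p = 0.00419), and Fech, which inserts the iron into the ring, by 3.40 ± 0.67 SE (adjusted p = 0.00662). Alad, the enzyme of the second step, was at 535, 526, 548 and 578 CPM and then 2108, 2251 and 2453 CPM, without overlap, but its adjusted p was 0.235. Of the same 14 genes, 13 were called higher without the CD45 RIT libraries, against 16.8% of all genes in that fit.

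The 250 bases before the starts that RefSeq gives for Alas2 and Hbb-bs are shown because both genes are classic targets of erythroid transcription factors (RefSeq, GRCm38.p6; the same source holds for the promoters below). The Alas2 stretch is chrX:150547167-150547416 on the plus strand, with the letters AGATAA, the core that GATA factors bind, in capitals as read on the minus strand. The Hbb-bs stretch is chr7:103827929-103828178 on the minus strand, with the letters CCACACCC, a CACCC element of the kind bound by KLF1, in capitals. It also holds the letters AGATAA, which are left in lower case there.
Alas2: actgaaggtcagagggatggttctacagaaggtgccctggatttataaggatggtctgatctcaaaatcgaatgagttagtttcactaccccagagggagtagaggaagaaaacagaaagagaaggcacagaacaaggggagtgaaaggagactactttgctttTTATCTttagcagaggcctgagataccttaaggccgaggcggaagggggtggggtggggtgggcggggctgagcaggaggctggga
Hbb-bs: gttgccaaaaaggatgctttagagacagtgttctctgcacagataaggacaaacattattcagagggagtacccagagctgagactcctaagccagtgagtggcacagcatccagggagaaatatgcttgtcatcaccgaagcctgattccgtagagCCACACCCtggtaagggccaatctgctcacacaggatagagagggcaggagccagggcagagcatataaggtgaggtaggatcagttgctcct
The match starts 86 bases before the start of Alas2 and 93 bases before that of Hbb-bs. In windows from 250 bases before to 50 after a start, searched on both strands, AGATAA was found for 9 of 37 erythroid genes called higher with an entry (24.3%) and for 8.39% of 12306 tested genes with one. AGATAA was also found for 3 of 6 interferon-stimulated genes called higher with an entry (50%) and for 2 of 25 such mitosis genes (8%). CCACACCC was found for 2 of the 37 (5.41%) and for 4.65% of tested genes. A match describes letters and does not show a site in use.

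Among the iron genes, Erfe encodes erythroferrone, the hormone by which erythroblasts lower hepcidin in the liver. Erfe stood at 0.498, 3.53, 2.30 and 3.12 CPM in untreated libraries and at 69.6, 57.7 and 113 CPM after IgG RIT (log2 fold change 5.08 ± 1.30 SE, adjusted p = 0.0218). TBI replicate 6 was at 145 CPM, and the other TBI libraries, at 40.8 to 62.4 CPM, reached into the IgG RIT range. Fth1, the ferritin heavy chain that stores iron, went from 2124, 2659, 2411 and 2366 CPM to 7641, 7493 and 7521 CPM (1.66 ± 0.25 SE, adjusted p = 0.00225). Tfrc, the transferrin receptor, was 177, 137, 249 and 242 CPM and then 2449, 1762 and 1781 CPM, and its adjusted p was 0.0901.

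The membrane genes gave the same picture. Slc4a1, the anion exchanger band 3, was at 489.9, 204, 546 and 460.4 CPM in untreated and 9238, 6172 and 7238 CPM in IgG RIT libraries (log2 fold change 4.15 ± 0.87 SE, adjusted p = 0.00862). Dmtn, the actin-bundling protein dematin, rose by 3.53 ± 0.46 SE (adjusted p = 0.00184). Tmod1, which caps the short actin filaments of the membrane skeleton, rose by 3.81 ± 0.88 SE (adjusted p = 0.0137). All 19 membrane genes had groups that did not overlap, against 43.1% of all genes, and all 19 were called higher without the CD45 RIT libraries, against 16.8%. The summed level was 3030 to 4472 CPM in untreated, 22140 to 26030 CPM in IgG RIT libraries and 23160 CPM in TBI replicate 6.

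Fewer of the lineage's transcription factors were called. Epor, the erythropoietin receptor, went from 106, 105, 104 and 121 CPM to 529, 480 and 512 CPM (log2 fold change 2.22 ± 0.44 SE, adjusted p = 0.007). Tal1, a bHLH factor of blood and endothelium, rose by 2.42 ± 0.33 SE (adjusted p = 0.00184) and Cish, an inhibitor induced by cytokine receptors through STAT5, by 2.98 ± 0.47 SE (adjusted p = 0.00285). Gata1, the leading factor of the lineage, was at 199.6, 267, 199.8 and 259.7 CPM and then 604, 604 and 611 CPM, with an adjusted p of 0.369. Klf1, which activates the beta globin genes, was at 467, 448, 435 and 474 CPM and then 1637, 1738 and 1768 CPM, with an adjusted p of 0.288. For both the groups did not overlap, and each was called in 2 of 18 other settings. Without the CD45 RIT libraries 11 of the 18 genes of this list were called higher, against 16.8% of all genes. In that fit 4 were called lower, against 20.3%. Ldb1, the bridging partner of GATA1 and TAL1, fell by 0.78 ± 0.25 SE on the log2 scale (adjusted p = 0.0485), and was called in 8 of 18 other settings.

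Late maturation genes included Ube2o, a ubiquitin-conjugating enzyme that clears ribosomes, which rose from 21.3, 22.5, 29.9 and 46.8 CPM to 584, 247 and 277 CPM (log2 fold change 3.62 ± 0.74 SE, adjusted p = 0.00792). Bpgm, which makes the 2,3-bisphosphoglycerate that lowers the oxygen affinity of haemoglobin, rose by 3.49 ± 0.90 SE, and Trim58, a ubiquitin ligase of enucleating cells, by 3.32 ± 0.75 SE (adjusted p = 0.022 and 0.0121). Bnip3l, the mitophagy receptor that clears mitochondria, was at 163, 152, 172 and 169 CPM and then 792, 569.5 and 499 CPM (1.92 ± 0.54 SE, adjusted p = 0.0311). Its value was 826 CPM in TBI replicate 6 and 161 to 228 CPM in the other TBI libraries.

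**Figure D2:**
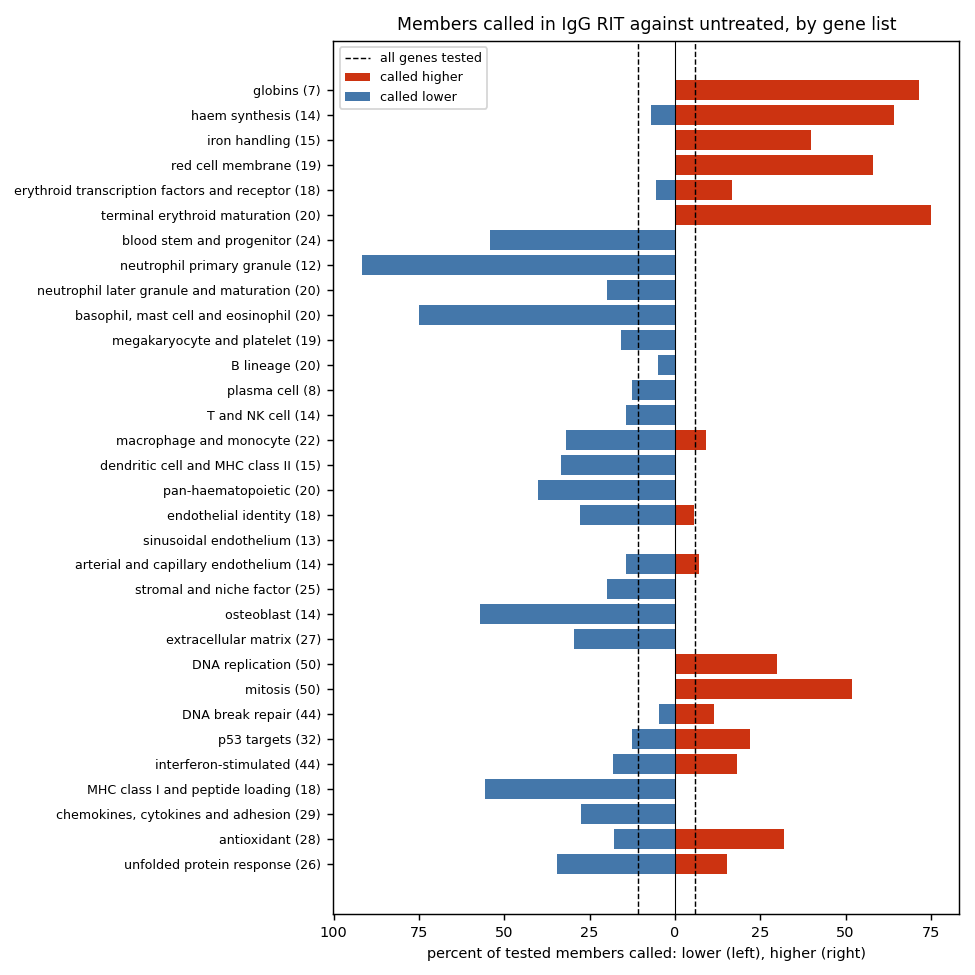
Percent of tested members called higher (red, right) and lower (blue, left) in each of 32 gene lists, with the number of members tested in brackets; the broken lines mark the 5.75% and 10.7% of all genes. The erythroid and mitosis lists extend to the right only or almost only, and the progenitor, primary granule and basophil lists to the left only.

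Genes of blood progenitors and granulocytes fell. Members called lower numbered 13 of 24 in the stem and progenitor list, 11 of 12 in the neutrophil primary granule list and 15 of 20 in the basophil, mast cell and eosinophil list, against 10.7% of all genes. None of these lists had a member called higher, and their median log2 fold changes were -3.03, -3.39 and -5.04. The progenitor genes summed to 1384 to 1895 CPM in untreated and 132.6 to 178.1 CPM in IgG RIT libraries, a 10.2-fold ratio of means. TBI replicate 6 held 120.6 CPM and the other TBI libraries 329.9 to 435.6.

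Cd34, the sialomucin of progenitors and of capillary endothelium, was at 296, 229, 200.2 and 224 CPM in untreated and 12.2, 8.02 and 11.2 CPM in IgG RIT libraries (log2 fold change -4.50 ± 0.50 SE, adjusted p = 0.00149). Flt3, a receptor of multipotent progenitors, went from 140.1, 85.7, 69.0 and 94.5 CPM to 1.97, 2.94 and 7.73 CPM (-4.53 ± 1.03 SE, adjusted p = 0.0123). Gata2, a factor of stem cells, mast cells and endothelium, went from 242, 129, 156 and 206 CPM to 7.59, 5.73 and 11.2 CPM (-4.48 ± 0.55 SE, adjusted p = 0.00184). Each of the 3 lay without overlap below the untreated range. Kit, the stem cell factor receptor, was at 152, 89.2, 118 and 179.9 CPM and then 11.4, 9.46 and 17.3 CPM without overlap, with an adjusted p of 0.0709.

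Genes of the list for the primary granules of neutrophil precursors fell together, Mpo from rank 6 among all genes per kilobase to rank 371. That list is not limited to granule proteins, and it shares members with the stromal and the T and NK cell lists. Mpo, the myeloperoxidase of these granules, stood at 8271, 7658, 7081 and 7061 CPM in untreated and 550.3, 484 and 685 CPM in IgG RIT libraries (log2 fold change -3.71 ± 0.72 SE, adjusted p = 0.00634). Elane, neutrophil elastase, went from 1179, 1224, 1057 and 968 CPM to 73.8, 89.9 and 123 CPM (-3.54 ± 0.65 SE, adjusted p = 0.00529). Both lay below the untreated range in every IgG RIT library, and TBI libraries were low as well, at 251 to 766 CPM for Mpo in 4 of them and 49.1 CPM in TBI replicate 6. The predicted gene Gm11505 lies on the strand opposite to Mpo and fell with it, and without strand information the reads of the pair cannot be told apart. Only 4 of 20 genes of later granules and maturation were called, all lower (20%, against 10.7% of all genes). S100a8, a calcium-binding protein of mature neutrophils, was at 11.2, 2.51, 14.2 and 13.5 CPM in untreated and 6.08, 81.5 and 14.4 CPM in IgG RIT libraries, so that replicate 2 alone was high (adjusted p = 0.153). S100a9, its partner, had the same pattern, with 11.4, 71.8 and 13.2 CPM after IgG RIT. Anxa1, the anti-inflammatory annexin of granulocytes, fell from 221, 237, 218 and 204 CPM to 33.1, 48.3 and 46.4 CPM (-2.37 ± 0.36 SE, adjusted p = 0.00249).

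Most basophil, mast cell and eosinophil genes fell, and the IgG RIT libraries differed from each other in what they kept. Summed over the list, untreated libraries held 8207 to 11560 CPM and IgG RIT libraries 23.92 to 400.5 CPM. Mcpt8, a basophil protease, was at 1585, 1596, 998 and 1254 CPM in untreated libraries and at 0.869, 6.67 and 70.9 CPM after IgG RIT (log2 fold change -5.70 ± 1.23 SE, adjusted p = 0.00974). Prss34, another basophil protease, had been the fourth most abundant gene per kilobase, at 3434 CPM per kilobase, and averaged 98.82 after IgG RIT. Its single values were 5150, 4055, 3380 and 4173 CPM and then 0, 15.4 and 346 CPM, and with that spread its adjusted p was 0.0541. IgG RIT replicate 3 was the highest of its group for both genes. For Prg2, the eosinophil major basic protein, it was replicate 2, with 1258, 1472, 1719 and 661 CPM in untreated and 0.869, 164 and 1.16 CPM in IgG RIT libraries (adjusted p = 0.0569); Prg2 was chosen after its values were seen. Cyp11a1, the side-chain cleaving enzyme that begins steroid synthesis, went from 92.3, 47.4, 47.9 and 51.0 CPM to 0, 0.199 and 0.21 CPM (-8.69 ± 0.88 SE, adjusted p = 0.000977). Ear1 and Ear2, eosinophil-associated ribonucleases and near-identical copies, both fell. Ear1 went from 20.5, 29.7, 47.3 and 22.6 CPM to 0.116, 0 and 0 CPM, the one value above 0 being 2 counts (adjusted p = 0.00165). Ear2 had no count after IgG RIT and was at least 142-fold lower against a floor of 3 counts in 1 library (adjusted p = 0.00184).

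In the megakaryocyte, B lineage, T and NK and plasma cell lists the share of genes called was near that of all genes (10.7% lower). Their median log2 fold changes were -1.30, -1.66, -4.63 and -1.28, against -0.42 over all genes tested. Each list summed lower in every IgG RIT library than in any untreated library. The untreated means were 3.57, 4.40, 8.27 and 4.04 times the IgG RIT means. Of 19 megakaryocyte and platelet genes 3 were lower (15.8%), among them Pf4, platelet factor 4, which was at 75.7, 90.2, 51.1 and 75.6 CPM and then 13.3, 1.40 and 18.5 CPM (log2 fold change -2.73 ± 0.81 SE, adjusted p = 0.0378). The Pf4 call held in 8 of 18 other settings. Of 20 B lineage genes 1 was lower (5%). Cd79a and Cd79b, the signalling chains of the B cell receptor, had log2 fold changes of -1.52 ± 0.69 and -1.68 ± 0.62 SE with adjusted p of 0.147 and 0.0827. Untreated replicate 3 held 3329 CPM over the B lineage list and the other untreated libraries 1116 to 1381, while the IgG RIT libraries held 218.3 to 720.8. Of 14 T and NK cell genes 2 were lower (14.3%), and of 8 plasma cell genes 1 (12.5%), Xbp1 (-1.22 ± 0.17 SE, adjusted p = 0.00184), which also drives protein folding capacity in other cells.

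Of 22 macrophage and monocyte genes 7 were lower (31.8%, against 10.7% of all genes) and 2 higher (9.09%, against 5.75%). Irf8, the factor of monocyte and dendritic cell fate, was at 229, 208, 223 and 231 CPM in untreated and 13.0, 13.5 and 66.7 CPM in IgG RIT libraries (log2 fold change -2.84 ± 0.85 SE, adjusted p = 0.0398), with replicate 3 the highest of the latter. The Irf8 call held in 9 of 18 other settings. Csf1r, the receptor for macrophage colony-stimulating factor, fell by 2.72 ± 0.46 SE on the log2 scale (adjusted p = 0.00358) and Fcgr3, an Fc receptor, by 3.26 ± 0.59 SE (adjusted p = 0.0056). The 2 members called higher, C1qa and Cd5l, are products of tissue macrophages and had no count in any untreated library. Their levels after IgG RIT were 0.811, 0.448 and 0.315 CPM for C1qa and 0.521, 0 and 1.84 CPM for Cd5l, at least 5.05-fold and 7.58-fold higher against the floor (adjusted p = 0.0481 and 0.0399). Of 15 dendritic cell and MHC class II genes 5 were lower (33.3%), with H2-Ab1, a class II beta chain, at 48.4, 55.9, 63.4 and 28.4 CPM and then 10.5, 7.72 and 19.1 CPM (-1.98 ± 0.51 SE, adjusted p = 0.0224). H2-DMa, which helps to load peptide onto class II, fell by 4.24 ± 0.56 SE (adjusted p = 0.00184).

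Of 20 genes shared by most white blood cells 8 were called lower (40%, against 10.7% of all genes) and none higher, with a median log2 fold change of -2.54. Tyrobp, the adaptor of many activating receptors, went from 138, 188, 128 and 133 CPM to 6.78, 14.5 and 17.6 CPM (-3.50 ± 0.59 SE, adjusted p = 0.00379). Lcp1, a leucocyte actin-bundling protein, went from 419, 311, 369 and 498 CPM to 34.2, 22.2 and 85.0 CPM (-3.08 ± 0.57 SE, adjusted p = 0.00535). Ptprc was at 85.8, 47.2, 73.9 and 84.2 CPM and then 4.52, 14.2 and 12.5 CPM without overlap, with an adjusted p of 0.119. Without the CD45 RIT libraries 18 of the 20 genes were called lower, against 20.3% of all genes.

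**Figure D3:**
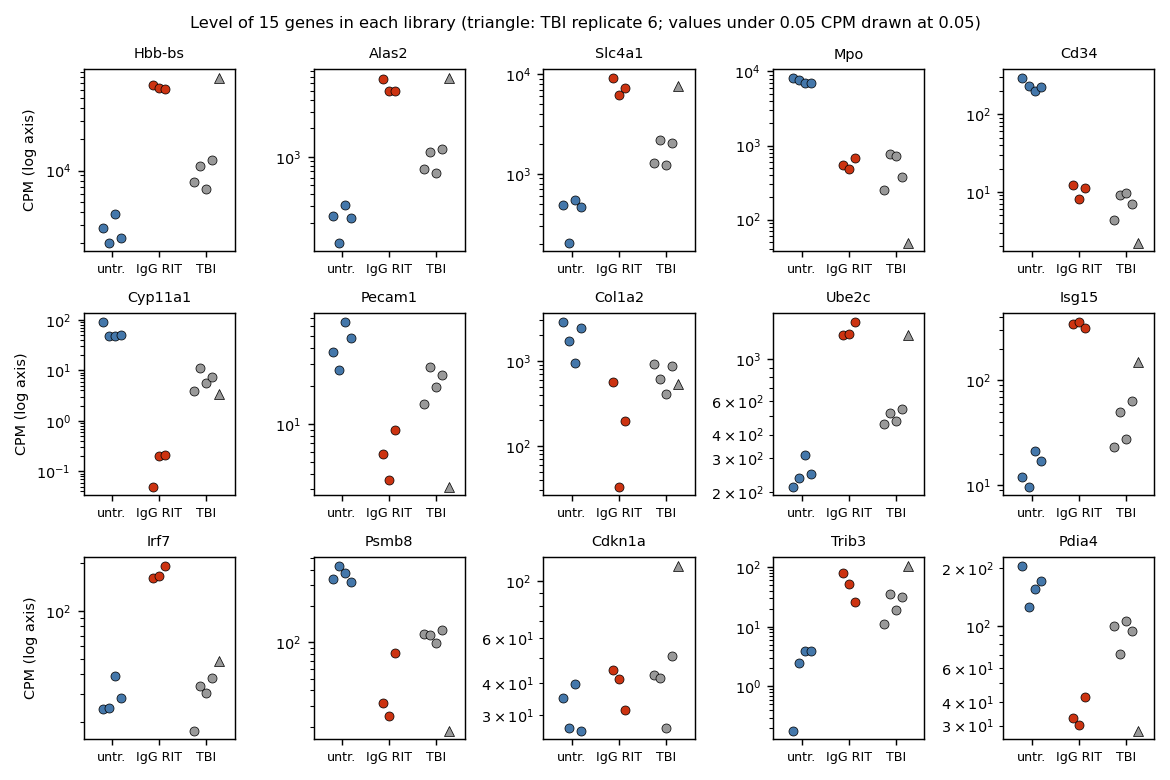
CPM (log axes) of 15 genes in each untreated (blue), IgG RIT (red) and TBI (grey) library, with TBI replicate 6 as a triangle and values under 0.05 CPM drawn at 0.05. The triangle lies close to the red points for Hbb-bs, Alas2, Slc4a1, Ube2c and Pdia4, and below them for Irf7 and Isg15.

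Of 25 endothelial identity genes 18 passed the filter on low counts, as did 13 of 17 sinusoidal and 14 of 17 arterial and capillary genes. Of the 18, 5 were called lower (27.8%, against 10.7% of all genes) and 1, Tal1, higher, with a median log2 fold change of -2.06. Pecam1, the junction protein CD31, was at 37.0, 26.8, 65.3 and 48.2 CPM in untreated and 5.73, 3.59 and 8.99 CPM in IgG RIT libraries (log2 fold change -2.86 ± 0.67 SE, adjusted p = 0.014). Every IgG RIT library was below every untreated library, and TBI replicate 6 was at 3.16 CPM. Icam2, an adhesion molecule of endothelium and leucocytes, went from 31.0, 58.5, 45.9 and 51.3 CPM to 9.85, 9.91 and 15.5 CPM (-1.99 ± 0.52 SE, adjusted p = 0.0246). Egfl7, a secreted factor of endothelium and progenitors, fell by 1.54 ± 0.43 SE (adjusted p = 0.0302), and was called in 9 of 18 other settings. Cd34 and Erg were the other members called lower, and both stand in the progenitor list, as Egfl7 does. Of 13 sinusoidal genes edgeR called 0 in either direction, with 4 at an unadjusted p under 0.05, while DESeq2 called 2 lower (16.2% of all genes) and edgeR without the CD45 RIT libraries 3 lower (20.3% of all genes). Of 14 arterial and capillary genes 2 were lower (14.3%) and 1 higher (7.14%): Rgcc, a cell cycle regulator, went from 118, 158, 110.5 and 94.4 CPM to 394, 403 and 475 CPM (1.82 ± 0.32 SE, adjusted p = 0.00447). The pan-haematopoietic and progenitor sums beside these genes fell as described above, and their part in the endothelial values was not tested.

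Stromal, bone and matrix genes were lower in part. Of 25 stromal and niche genes 5 were called lower, of 14 osteoblast genes 8 and of 27 extracellular matrix genes 8 (20%, 57.1% and 29.6%, against 10.7% of all genes), with none higher. With no scaling the stromal and matrix counts were 16 each, against 20.1% of all genes. Without TBI replicate 6 the stromal count was 10, beside 2790 of 21446 genes called lower in that fit. Cxcl12, the chemokine that holds stem cells in the marrow, was at 1031, 1639, 694 and 1154 CPM in untreated and 240.3, 188 and 607 CPM in IgG RIT libraries, without overlap and with an adjusted p of 0.0705. The other TBI libraries were lower still, at 39.7 to 145 CPM. Lepr, the leptin receptor that marks niche stroma, was at 72.7, 73.7, 65.6 and 108 CPM and then 32.9, 42.0 and 43.0 CPM (adjusted p = 0.164). Angpt1, the ligand of TEK, fell from 77.5, 43.9, 39.5 and 63.6 CPM to 6.02, 1.49 and 3.84 CPM (-3.89 ± 0.66 SE, adjusted p = 0.0038). Apoe, a lipid carrier of stroma and macrophages, fell from 477, 715, 292 and 363 CPM to 143, 107 and 71.3 CPM (-2.11 ± 0.41 SE, adjusted p = 0.00622), and Pdgfra, a receptor of mesenchymal cells, by 2.69 ± 0.75 SE (adjusted p = 0.0303).

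The bone and collagen genes varied widely within both groups. Col1a2, a chain of type I collagen, was at 2901, 1705, 946 and 2460 CPM in untreated and 569, 33.4 and 198 CPM in IgG RIT libraries (log2 fold change -2.91 ± 0.76 SE, adjusted p = 0.024). IgG RIT replicate 2 was the lowest and replicate 1 the highest of its group, and the groups did not overlap. Col1a1, the other chain, had the same order, with 448, 13.2 and 128 CPM after IgG RIT (-2.82 ± 0.88 SE, adjusted p = 0.0462), and was called in 6 of 18 other settings. Bglap, osteocalcin, went from 315, 206, 74.2 and 168 CPM to 62.3, 7.62 and 12.0 CPM (-2.81 ± 0.74 SE, adjusted p = 0.024). Fbn1, the microfibril protein fibrillin, fell by 2.67 ± 0.73 SE (adjusted p = 0.0274). Over the matrix list the untreated libraries spanned 3056 to 8956 CPM and the IgG RIT libraries 336.1 to 1326.

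Cell cycle genes rose. All 50 mitosis genes tested had groups that did not overlap, against 43.1% of all genes, 26 were called higher (52%, against 5.75%) and none lower, and their median log2 fold change was 1.53. Of 50 DNA replication genes 15 were called higher (30%) and none lower, with a median of 0.62. Without the CD45 RIT libraries the counts were 50 and 41, against 16.8% of all genes, and with no scaling 20 and 3, against 3.42%, with the replication median at 0.10. The mitosis genes summed to 6934 to 9421 CPM in untreated, 18590 to 19410 in IgG RIT and 12090 to 14400 in 4 TBI libraries, with 16640 in TBI replicate 6.

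Cdc25b, the phosphatase that starts mitosis by activating CDK1, was at 59.5, 56.2, 129 and 69.9 CPM in untreated and 786, 674 and 692 CPM in IgG RIT libraries (log2 fold change 3.19 ± 0.53 SE, adjusted p = 0.00356). Ube2c, which serves the anaphase-promoting complex, went from 214, 236, 314 and 250 CPM to 1329, 1351 and 1568 CPM (2.48 ± 0.48 SE, adjusted p = 0.00631). Both were well above the untreated range in every IgG RIT library. Birc5, the survivin subunit of the chromosomal passenger complex, rose by 2.19 ± 0.60 SE and Prc1, which bundles the microtubules of the central spindle, by 2.13 ± 0.25 SE (adjusted p = 0.028 and 0.00149). Mki67, the proliferation marker, was at 285, 313, 447 and 375 CPM and then 2205, 1921 and 1800 CPM, with an adjusted p of 0.145. Among replication genes, Rrm2, the regulated subunit of ribonucleotide reductase, went from 837, 521, 945 and 836 CPM to 3694, 3117 and 3423 CPM (2.12 ± 0.54 SE, adjusted p = 0.0216). Tk1, thymidine kinase, rose by 1.68 ± 0.22 SE (adjusted p = 0.00184). Mcm2, a subunit of the replicative helicase, was at 533, 373, 490 and 578 CPM and then 789, 731 and 698 CPM, with an adjusted p of 0.708.

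The stretches before the starts of Ube2c (chr2:164769679-164769928, plus strand) and Prc1 (chr7:80294226-80294475, plus strand) are shown because each holds letters known from mitotic promoters. The capitals mark TTTGAA, the letters of the cell cycle genes homology region (CHR), through which the DREAM complex silences such genes in resting cells.
Ube2c: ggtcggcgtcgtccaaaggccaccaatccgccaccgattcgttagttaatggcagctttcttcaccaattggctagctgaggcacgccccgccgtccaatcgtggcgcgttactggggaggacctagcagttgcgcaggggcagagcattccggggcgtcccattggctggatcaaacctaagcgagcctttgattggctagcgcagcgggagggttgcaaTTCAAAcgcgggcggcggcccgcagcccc
Prc1: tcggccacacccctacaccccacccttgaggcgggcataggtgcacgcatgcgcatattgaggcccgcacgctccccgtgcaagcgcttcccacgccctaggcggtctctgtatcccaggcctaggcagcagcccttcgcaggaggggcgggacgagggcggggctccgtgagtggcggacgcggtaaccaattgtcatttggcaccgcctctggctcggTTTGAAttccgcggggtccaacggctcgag
The matches start 29 and 30 bases before the starts, for Ube2c as read on the minus strand. TTTGAA was found on either strand for 18 of 25 mitosis genes called higher with an entry (72%) and for 15.2% of tested genes with one. The 250 bases before the starts of Cdc25b and Birc5, and before another start that RefSeq gives for Prc1, held no match. These letters are short, and no binding was measured.

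**Figure D4:**
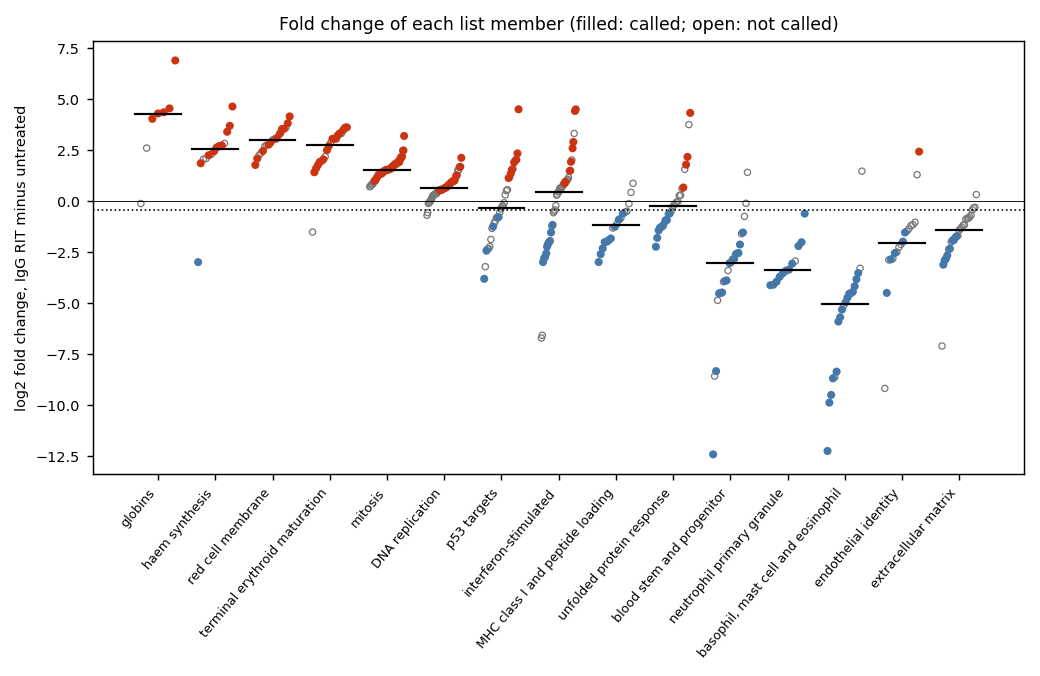
Log2 fold change between IgG RIT and untreated libraries for every tested member of 15 gene lists; filled points were called, open points were not, bars mark the list median and the dotted line the median of all genes tested, -0.42. Mitosis members lie in a narrow band above 0, while p53 targets, interferon-stimulated genes and the unfolded protein response spread to both sides.

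The DNA damage lists had genes called in both directions. Of 44 break repair genes 5 were called higher (11.4%, against 5.75% of all genes) and 2 lower (4.55%, against 10.7%), with a median log2 fold change of 0.34 that became -0.17 with no scaling. H2afx, the histone variant phosphorylated at breaks, went from 339.8, 393, 411 and 368 CPM to 1006, 984 and 1315 CPM (1.54 ± 0.27 SE, adjusted p = 0.00398), and the predicted gene Gm44335 overlaps it. Fancl, the ubiquitin ligase of the Fanconi pathway, rose by 1.35 ± 0.25 SE (adjusted p = 0.00515). Parp1, the sensor of single-strand breaks, fell from 291, 169, 259 and 245 CPM to 131, 72.3 and 104 CPM (-1.24 ± 0.39 SE, adjusted p = 0.0486), and was called in 7 of 18 other settings.

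The p53 targets Cdkn1a, Mdm2 and Ccng1 did not pass the test 8 days after IgG RIT, while others of the list did. Cdkn1a, the CDK inhibitor p21, was at 35.1, 26.7, 39.6 and 26.1 CPM in untreated and 45.2, 41.6 and 31.3 CPM in IgG RIT libraries, with overlap (log2 fold change 0.30 ± 0.41 SE, adjusted p = 0.648), and its sign turned with no scaling (-0.22). TBI replicate 6 stood apart at 115 CPM. Mdm2, the ligase that degrades p53, had a log2 fold change of 0.56 ± 0.20 SE and Ccng1, cyclin G1, one of -0.23 ± 0.21 SE (adjusted p = 0.0688 and 0.472). Of 18 other settings, Mdm2 was called in 5, Ccng1 in 1 and Cdkn1a in 0. Of 32 genes of the list 7 were called higher (21.9%, against 5.75% of all genes) and 4 lower (12.5%, against 10.7%). With DESeq2's size factors in edgeR the counts were 8 and 1, beside 1549 higher and 1766 lower of 21509 genes. Those higher included Btg2, an antiproliferative factor, from 175, 90.6, 237 and 152 CPM to 1023, 661 and 797 CPM (2.34 ± 0.51 SE, adjusted p = 0.01). Bbc3, the death protein PUMA, rose from 14.9, 4.97, 8.78 and 9.81 CPM to 61.9, 31.3 and 24.3 CPM (2.03 ± 0.53 SE, adjusted p = 0.0236), and Sesn2, a sestrin induced by stress, by 1.90 ± 0.51 SE (adjusted p = 0.025). Ckap2, a spindle protein, rose by 1.54 ± 0.24 SE (adjusted p = 0.00254). Those lower included Xpc, the damage sensor of nucleotide excision repair, from 51.1, 48.7, 53.8 and 64.6 CPM to 8.63, 7.92 and 13.7 CPM (-2.43 ± 0.74 SE, adjusted p = 0.0423), and Trp53 itself, from 210.3, 275, 229.6 and 244 CPM to 149, 142 and 126 CPM (-0.79 ± 0.23 SE, adjusted p = 0.0384). These calls held in 7 (Xpc) and 8 (Trp53) of 18 other settings, and both were lost with DESeq2's size factors in edgeR and on leaving out any 1 untreated or IgG RIT library.

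Interferon-stimulated genes were divided. Of 44 tested, 8 were called higher and 8 lower (18.2% each, against 5.75% and 10.7% of all genes), with a median log2 fold change of 0.46 that became -0.07 with no scaling. Antiviral effectors and their regulators were among those higher, and members of the immunoproteasome, peptide transport and GBP families among those lower. Isg15 (chr4:156199455-156200796), a ubiquitin-like modifier, was at 12.2, 9.76, 21.5 and 17.2 CPM in untreated and 344, 363 and 318 CPM in IgG RIT libraries (4.50 ± 0.61 SE, adjusted p = 0.00184). TBI replicate 6 was at 149 CPM, below all 3, and the other TBI libraries at 23.2 to 64.2 CPM. Rsad2, the radical SAM enzyme viperin, went from 51.0, 40.0, 107 and 83.4 CPM to 2063, 1206 and 1242 CPM (4.42 ± 0.66 SE, adjusted p = 0.00228). Irf7, the factor that amplifies type I interferon, went from 24.0, 24.4, 39.1 and 28.2 CPM to 161, 167 and 194 CPM (2.59 ± 0.31 SE, adjusted p = 0.00153), while TBI replicate 6 was at 48.2 CPM and the other TBI libraries at 17.6 to 38.0 CPM. Oas3, an oligoadenylate synthetase, rose by 2.90 ± 0.62 SE (adjusted p = 0.00938). Ifit1, a sensor of viral RNA caps, was at 3.67, 2.25, 12.2 and 5.54 CPM and then 24.1, 21.1 and 26.7 CPM with an adjusted p of 0.0739.

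The interferon-stimulated response element, bound by the ISGF3 complex and by IRF factors, holds repeats of GAAA, and the stretches before Isg15 (chr4:156200819-156201068, minus strand) and Rsad2 (chr12:26456453-26456702, minus strand) show it. Capitals mark matches to 2 copies of GAAA with any 2 bases between them.
Isg15: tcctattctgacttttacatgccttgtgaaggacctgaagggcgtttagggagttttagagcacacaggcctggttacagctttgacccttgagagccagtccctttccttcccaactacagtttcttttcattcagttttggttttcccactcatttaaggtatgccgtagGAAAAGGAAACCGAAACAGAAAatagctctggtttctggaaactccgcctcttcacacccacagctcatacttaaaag
Rsad2: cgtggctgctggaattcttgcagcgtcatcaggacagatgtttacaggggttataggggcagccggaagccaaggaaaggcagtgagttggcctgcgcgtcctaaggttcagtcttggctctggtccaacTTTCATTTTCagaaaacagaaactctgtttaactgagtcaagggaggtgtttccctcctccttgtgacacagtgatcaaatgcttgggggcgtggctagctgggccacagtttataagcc
Isg15 has 3 overlapping matches that start 78, 72 and 66 bases before its start, and Rsad2 has 1, read on the minus strand, at 120 bases. On both strands the letters were found for 3 of 6 called higher (50%) and 3 of 7 called lower (42.9%) members of the list with an entry, and for 3.84% of tested genes. Among other genes called higher, they were found for 5 of 37 erythroid genes (13.5%) and 2 of 25 mitosis genes (8%).

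MHC class I and peptide loading genes fell, 10 of 18 called lower (55.6%, against 10.7% of all genes) and none higher, with a median log2 fold change of -1.19. H2-K1, a classical class I heavy chain, went from 748, 1078, 873 and 744 CPM to 216, 216 and 292 CPM (-1.83 ± 0.31 SE, adjusted p = 0.00372). H2-D1, the other one, fell by 0.91 ± 0.19 SE (adjusted p = 0.00852). B2m, their common light chain, was at 1028, 1095, 1150 and 975 CPM and then 637, 741 and 875 CPM with an adjusted p of 0.121. Psmb8, an immunoproteasome subunit, went from 332, 432, 378 and 317 CPM to 31.4, 24.6 and 81.7 CPM (-2.99 ± 0.62 SE, adjusted p = 0.00824), and TBI replicate 6 was at 18.7 CPM. Tap2, a chain of the peptide transporter, fell by 2.01 ± 0.41 SE (adjusted p = 0.00759), and Irf1, the factor that drives several of these genes, by 2.77 ± 0.55 SE (adjusted p = 0.00705). Class I genes share long stretches of sequence, so reads may be assigned to the wrong member. The white blood cell genes above fell beside them, and their part in the class I values was not tested.

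Of 29 chemokine, cytokine and adhesion genes 8 were called lower (27.6%, against 10.7% of all genes) and none higher. Ccl6, a chemokine of myeloid cells, went from 58.6, 43.5, 45.0 and 51.7 CPM to 0.637, 0.847 and 2.42 CPM (log2 fold change -5.25 ± 0.61 SE, adjusted p = 0.00143). Ccl9, its neighbour in the cluster, went from 88.7, 108, 86.2 and 92.4 CPM to 6.20, 6.92 and 6.62 CPM (-3.83 ± 0.61 SE, adjusted p = 0.00298).

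Genes of the unfolded protein response were also divided. Of 26 genes 4 were called higher (15.4%, against 5.75% of all genes) and 9 lower (34.6%, against 10.7%). Atf4, the translationally controlled factor of the integrated stress response, rose from 132, 100.2, 112 and 109 CPM to 382, 385 and 406 CPM (log2 fold change 1.79 ± 0.24 SE, adjusted p = 0.00184). Its targets Ddit3, the factor CHOP, and Trib3, a pseudokinase, rose by 2.17 ± 0.35 and 4.32 ± 0.93 SE (adjusted p = 0.00301 and 0.00977). Trib3 was at 0.183, 2.51, 3.87 and 3.95 CPM in untreated and 79.7, 52.7 and 25.5 CPM in IgG RIT libraries. Dnajb11, a co-chaperone of the lumen, rose by 0.66 ± 0.18 SE (adjusted p = 0.0247) and was not called with no scaling. Among those lower, Pdia4, a disulfide isomerase of the lumen, went from 207, 126, 156 and 172 CPM to 32.8, 30.1 and 42.2 CPM (-2.24 ± 0.40 SE, adjusted p = 0.00468). Pdia6, another isomerase, fell by 1.80 ± 0.26 SE and Hsp90b1, the chaperone GRP94, by 0.94 ± 0.23 SE (adjusted p = 0.00204 and 0.0182). Hspa5, the chaperone BiP, was at 838, 607, 828 and 933 CPM and then 1218, 702 and 979 CPM, with an adjusted p of 0.357, and its sign turned with no scaling (-0.26). The letters TGATGNAA, the core of the element that ATF4 binds, were found for 1 of 4 genes called higher, 0 of 9 called lower and 2.89% of tested genes.

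Antioxidant genes went both ways, 9 of 28 called higher (32.1%, against 5.75% of all genes) and 5 lower (17.9%, against 10.7%). Gpx1, the glutathione peroxidase abundant in red cells, went from 2994, 3601, 3281 and 3068 CPM to 15890, 15390 and 15980 CPM (log2 fold change 2.28 ± 0.66 SE, adjusted p = 0.0351). Prdx2, the peroxiredoxin of red cells, went from 939, 1081, 1122 and 1056 CPM to 5633, 6008 and 6146 CPM (2.50 ± 0.57 SE, adjusted p = 0.0125). Its relatives Prdx1 and Prdx6 fell by 1.07 ± 0.20 and 1.27 ± 0.38 SE (adjusted p = 0.00529 and 0.038). TBI replicate 6, at 6552 CPM for Prdx2 and 17030 CPM for Gpx1, lay above the IgG RIT libraries.

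Among protein-coding genes whose average log2 CPM over all 14 libraries reached 3 and whose groups did not overlap, the largest rises were not limited to the erythroid lists. That average takes in the TBI and CD45 RIT libraries, so genes low in the 7 libraries compared could pass, as Podxl, Col9a2 and Cnmd did. Plek2, a pleckstrin family member of erythroblasts, went from 3.06, 0.718, 3.74 and 2.95 CPM to 143, 173 and 220.1 CPM (log2 fold change 6.09 ± 1.27 SE, adjusted p = 0.00857). Apol11b, of the apolipoprotein L family, went from 15.7, 9.28, 41.4 and 10.6 CPM to 1003, 782 and 700.3 CPM (5.43 ± 1.00 SE, adjusted p = 0.00525), in a family whose close copies make the assignment of reads uncertain. Podxl, a sialomucin of endothelium and podocytes, had no count in any untreated library and 1.91, 1.94 and 4.99 CPM after IgG RIT, at least 28.4-fold higher (adjusted p = 0.00249). It was higher still in TBI libraries, at 24.2 CPM in replicate 6 and 34.6 to 63.1 CPM in the others. Col9a2 and Cnmd, both products of cartilage, were at 6.31, 8.37 and 3.31 and 1.79, 7.22 and 3.21 CPM after IgG RIT and at no more than 0.312 and 0.173 CPM in untreated libraries (adjusted p = 0.00617 and 0.00656). The largest falls included Matn2, a matrix adaptor, Timp4, an inhibitor of metalloproteinases, Bmper, a BMP regulator, and Shisa4, each without a count in the 3 IgG RIT libraries. The bounds were at least 31.4-fold for Matn2 (adjusted p = 0.0269), 27.7-fold for Timp4 (0.00824), 21.9-fold for Bmper (0.0364) and 19.2-fold for Shisa4 (0.00298), from untreated values of 7.78, 11.4, 1.90 and 0.762 CPM for Matn2 and 5.06, 10.8, 0.835 and 2.53 CPM for Timp4. Of the genes called lower 409 (17.8%) had at most 3 counts in every IgG RIT library, and of those called higher 74 (5.99%), 41 of them protein coding, had at most 3 in every untreated library, so their fitted fold changes depend on the prior count.

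Against TBI, a comparison that uses the same 3 IgG RIT libraries, IgG RIT differed at 52 of 21509 genes (0.242%), 15 higher and 37 lower, with 3984 at an unadjusted p under 0.05. Without the CD45 RIT libraries, and with TBI replicate 6 kept, 2495 genes were called (1010 higher and 1485 lower), all 52 among them. Without TBI replicate 6, all 52 and 2025 genes in all were called. DESeq2 called 2111, and no gene was called with library number as a covariate (697 at an unadjusted p under 0.05). Leaving out IgG RIT replicate 2 gave 2 calls, 1 of them among the 52, and leaving out replicate 1 gave 9, 5 of them among the 52. Irf7 was higher than after TBI by 2.37 ± 0.29 SE on the log2 scale (adjusted p = 0.0176), and Ifi27, an interferon-induced mitochondrial protein, by 1.62 ± 0.24 SE (adjusted p = 0.018). Ifi27 stood at 148, 178 and 191 CPM after IgG RIT, 68.0, 109.5, 98.4 and 81.6 CPM in untreated libraries, 37.5 CPM in TBI replicate 6 and 45.1 to 73.8 CPM in the other TBI libraries. Isg15 and Rsad2 had differences of 2.44 ± 0.53 and 2.37 ± 0.57 SE with adjusted p of 0.0658 and 0.0818. Col9a2 and Cnmd were higher by 8.16 ± 1.25 and 6.21 ± 1.06 SE (adjusted p = 0.0215 and 0.0383), and Sod3, the extracellular superoxide dismutase, by 2.58 ± 0.39 SE (adjusted p = 0.0204). Against untreated libraries Sod3 had an adjusted p of 0.458.

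Of the 20 basophil, mast cell and eosinophil genes tested 3 were called against TBI, all lower (0.242% of all genes were called). The 5 TBI libraries held 4.74 to 28.7 CPM of Ear2 and 6.44 to 26.4 CPM of Ear1, against 0 and at most 0.116 CPM after IgG RIT (adjusted p = 0.0176 and 0.0176). Cyp11a1, at 3.45 to 11.1 CPM after TBI, was lower as well (adjusted p = 0.0176). Ccl6, at 5.98 to 15.1 CPM after TBI, had a log2 difference of -2.96 ± 0.54 SE (adjusted p = 0.0489). Hbb-bs and Ube2c did not pass this test: Hbb-bs had a difference of 1.43 ± 0.75 SE (adjusted p = 0.331) and Ube2c of 1.10 ± 0.44 SE (adjusted p = 0.218), with TBI replicate 6 on the IgG RIT side of its group for both.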

How the data were processed

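Members and gene lists were chosen with earlier results of these data known. Some genes stand in more than 1 list, such as Prdx2, Psmb8, Flt3, Angpt1 and Col1a1, so the list counts are not independent. The deposited table holds whole-number counts of reads for 55335 genes in 14 libraries, per the file headers. The submitters' processing notes name STAR 2.7.7a, FastQC 0.11.9, edgeR 3.36.0 and the build hg38, while the gene identifiers and coordinates are mouse and equal GENCODE M21 (GRCm38) for all 54587 genes matched. Which program counted the reads, and whether by strand, is not given in the sources used here. Library groups came from the titles. Here edgeR 4.0.16 (R 4.3.3) fitted 1 coefficient per group over all 14 libraries with TMM factors and robust quasi-likelihood dispersion, for the 21509 genes kept by filterByExpr (10 counts, 15 in total). P-values were adjusted by Benjamini-Hochberg and called under 0.05; the standard error (SE) is the log2 fold change over the root of F. The test was tried on simulated counts. CPM of single genes use TMM-scaled totals, and list sums plain totals. The floor for fold bounds is 3 counts in the library of a group with the smallest TMM-scaled total. It was 0.174 CPM for IgG RIT and 0.104 CPM for untreated libraries, and it covers counting error only. Named genes are the first 3 members of each list, the 4 called members with the largest rise and fall, the 12 largest rises and falls of all genes, the 5 against TBI, the sort markers, 3 p53 targets and the most abundant genes; 4 of the genes so named are not reported here. DESeq2 1.42.0 and the settings of the closing section were alternatives. Replicate numbers did not pair the libraries: deviations of same-numbered untreated and IgG RIT libraries correlated at 0.0225, 0.0637 and 0.0338.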

Additional observations from a re-analysis of the deposited data

Results flagged for a closer look

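Single libraries stood far from the rest of their group by Dixon's criterion, which flags about 1 group in 20 by chance, for 6 of 152 named genes, examined in the untreated group, and for 11 sums of 32 lists, examined in the untreated and TBI groups. In the untreated group, replicate 2 had 14.2 CPM of Tmod1 (37.8 to 40.5 in the others) and 188 CPM of Tyrobp (128 to 138). Replicate 4 had 121 CPM of Epor (104 to 106) and 0.312 CPM of Col9a2 (0 to 0.0262). Replicate 1 had 92.3 CPM of Cyp11a1 (47.3 to 51.1) and 20.0 CPM of Sesn2 (15.1 to 15.8). The summed B lineage genes were at 3329 CPM in untreated replicate 3 (1116 to 1381 in the others), and the summed interferon-stimulated genes at 2203 CPM in the same library (1870 to 1900).

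In the TBI group, replicate 6 stood apart in 8 list sums. It was high for globins, at 156600 CPM (20460 to 36610 in the other TBI libraries), haem synthesis, at 25470 CPM (8598 to 11830), iron handling, at 12650 CPM (7964 to 8956), and the red cell membrane, at 23160 CPM (7604 to 11760). It was high as well for terminal erythroid maturation, at 33960 CPM (13050 to 17930), and antioxidant genes, at 26170 CPM (11150 to 13330). It was low for MHC class I and peptide loading, at 2594 CPM (4607 to 5370), and for the unfolded protein response, at 3738 CPM (5255 to 5757). TBI replicate 1 was high for sinusoidal endothelium genes, at 78.0 CPM (55.61 to 60.87).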

How the results depend on the processing

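The 3536 genes called between IgG RIT and untreated libraries (1236 higher, 2300 lower) became 5950 with DESeq2 (2468 and 3482), 6662 with only the 7 libraries compared (3418 higher), 7340 without the CD45 RIT libraries (3326 and 4014) and 2063 with the replicate block (808 and 1255). Without scaling factors 735 were higher and 4326 lower, and without the filter on low counts 1474 were lower. With library number as a covariate 19 were called, 0 higher and 19 lower. Leaving out 1 library of the untreated, IgG RIT or TBI group gave 1775 to 4158 calls, 667 to 1368 higher and 1107 to 2790 lower, with the fewest without IgG RIT replicates 1 and 2 and untreated replicate 4 and the most without TBI replicate 6. The 52 genes called against TBI became 2495 without the CD45 RIT libraries, 2111 with DESeq2 and 203 without scaling factors. They became 2025 without TBI replicate 6 and 0 with library number as a covariate, and leaving out 1 library of either group gave 2 to 2025. The replicate block gave 69 there, 10 of them shared, and moved list counts against untreated libraries. Those of the matrix (1 lower), osteoblast (4), primary granule (7) and DNA replication genes (9 higher) were among them. Over all 21509 genes that fit called 808 higher and 1255 lower, against 1236 and 2300 in the main fit. Replicate numbers do not pair the libraries, and of the 3 pairs the third did not correlate best with its own number. The cause of these shifts was not tested.

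Of 129 genes named as called, other settings kept 92 to 129, and library number as a covariate kept 1. In that fit the log2 fold change turned for Bnip3l (-0.07), Flt3 (4.30), Cd79a (1.33), Cd79b (0.94), Irf8 (0.40), Ptprc (0.08), Icam2 (0.13), Parp1 (0.37), Cdkn1a (-1.20), Ccng1 (0.32), Xpc (0.16), Trp53 (0.08) and Psmb9 (0.16). The list medians that turned in it were those of B lineage (1.32), plasma cell (0.79), macrophage and monocyte (0.33), dendritic cell and MHC class II (0.03) and p53 target genes (0.35). Without scaling factors, which moved the median of all genes from -0.42 to -0.94, the sign turned for DNA break repair (-0.17), interferon-stimulated (-0.07) and antioxidant (-0.05) list medians and for Cdkn1a (-0.22) and Hspa5 (-0.26). With only the 7 libraries it turned for p53 targets (0.01), the unfolded protein response (0.03) and Ccng1 (0.06). The median of later neutrophil granule genes was -0.30 with the replicate block and ran from -2.47 (without IgG RIT replicate 2) to 1.42 over libraries left out, and S100a8 from -0.01 (without the same library) to 2.21. Counts of 3 or fewer limit the genes at or near 0, for which only bounds are given.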

Other observations

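Gene families outside the lists were chosen after their values were seen, and their counts stand beside 5.75% of all genes called higher and 10.7% called lower. Clustered histone genes, whose transcripts lack poly(A) tails in dividing cells, summed to 585 to 894 CPM in untreated and 1790 to 2210 CPM in IgG RIT libraries, with 9 of 61 called higher and none lower. Apolipoprotein L genes had 4 of 8 called higher and summed to 19.1 to 86.4 CPM and then 864 to 1050 CPM, with 1800 CPM in TBI replicate 6. Cytosolic ribosomal protein genes had 1 of 79 called, lower, and a median log2 fold change of -0.11. Of 13 mitochondrially encoded genes 2 were called higher.

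Of 19 cartilage genes tested, also chosen after their values were seen, 7 were called higher (Col9a1, Col9a2, Col10a1, Snorc, Cnmd, Chad and Cytl1) and 2 lower (Col11a1 and Col11a2), while their summed level was 141 to 220 CPM in untreated and 103 to 159 CPM in IgG RIT libraries. Artn, which encodes the neurotrophic factor artemin, had 1 count in 1 untreated library and 0 in the others, and 226 to 379 counts in IgG RIT libraries (adjusted p = 0.00535 by edgeR).

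Olfactory receptor genes were called higher mainly beside the beta globin cluster on chromosome 7. These neighbours were chosen after their values were seen. Within 1 Mb of Hbb-bs 10 of 15 tested were called higher, and elsewhere in the genome 2 of 20, against 5.75% of all genes. Apart from Olfr592, those called near Hbb-bs had at most 7 counts in any untreated library and 4 to 49 in IgG RIT libraries. Olfr592 had 705 to 1232 counts in untreated and 11322 to 12124 in IgG RIT libraries (log2 fold change 4.48 ± 1.18 SE, adjusted p = 0.0244). Around Hba-a1 6 of 26 genes within 1 Mb, globins not counted, were called higher (23.1%, against 5.75% of all genes).

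Genes annotated as microRNAs were called higher in 20 of 104 cases (5.75% of all genes) and lower in 2 (10.7%). Among those higher, Gm44335 overlaps H2afx, and apart from Mir3620 the overlap of the others with longer genes was not tested. The counts therefore do not separate microRNAs from genes around them. Gm44390 had 52, 3210 and 65 counts in the IgG RIT libraries, with replicate 2 alone far above the rest. Mir3620, on the minus strand across the start of Alas2, had 13 to 81 counts in untreated and 766 to 1045 in IgG RIT libraries, with a log2 fold change of 4.65 beside 4.64 for Alas2. Without strand information such overlapping pairs cannot be told apart.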
